A study of Triticum aestivum with 6 samples.

Results

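Thiosulfate sulfurtransferase 18 genes were examined in root RNA-seq libraries of wheat (Triticum aestivum, line JW1, wild type). The members were the genes whose first protein name in the deposited annotation is thiosulfate sulfurtransferase 18, a match to an Arabidopsis protein, and they numbered 12 of 83219 listed genes. All had at least 1 count except TraesCS4D02G349800, and 10 were abundant enough to be tested. The rule uses names alone, but the family itself was chosen by the measured difference between 2N+ABA and 0N+ABA. Its levels, fold changes and calls are therefore given as a description and support nothing further. The 2N+ABA group received 2 mM potassium nitrate and 5 µM abscisic acid (ABA) for 3 h, and the 0N+ABA group received potassium chloride in place of the nitrate with the same ABA, with 3 libraries in each. All seedlings had germinated for 3 days, lost the endosperm, grown for 3 days with 2 mM nitrate and then spent 2 days without nitrogen. Both groups carried ABA, so the comparison is of nitrate against chloride in its presence, and effects of nitrate and chloride cannot be told apart. Whether each library had its own culture is not in the labels, so the errors and p-values measure the spread between libraries, which may be technical. Values per library are given in the order of replicates 1, 2 and 3. In a whole root, fewer cells of a type and less RNA per cell cannot be told apart.

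Thiosulfate sulfurtransferases, also called rhodaneses, hold a sulfur atom on a catalytic cysteine as a persulfide. They pass it from a donor such as thiosulfate to an acceptor, which can be cyanide, giving thiocyanate, or the thiol of another molecule. Plants have a family of rhodanese-domain proteins in the cytosol, plastids and mitochondria, and the acceptors of many of them in living roots are not settled. Cyanide itself is formed in plants as a by-product of ethylene synthesis.

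The libraries held 16907317 to 17735564 estimated counts. On the first principal component of log2 CPM, which held 46.1% of the variance, 0N+ABA replicate 2 lay at -1.56, between the other 0N+ABA libraries (-50.3 and -56.4) and the 2N+ABA libraries (31.5 to 44.8). Genes for NRT2 nitrate transporters, nitrate reductase and nitrite reductase checked the treatment: 25 of 30 tested rose in 2N+ABA and 0 fell by edgeR (0 lower at an unadjusted p under 0.05, and 0 by DESeq2 and limma-voom). One label names leaf tissue and the others name root. Genes for the RuBisCO small chain, the leaf carbon-fixing enzyme, summed to 9.30 to 36.0 CPM in 2N+ABA and 20.3 to 36.9 CPM in 0N+ABA, and 6 of these 17 genes had no count. Genes for Casparian strip membrane proteins, which mark the root endodermis, summed to 125 to 161 CPM in 2N+ABA and 89.8 to 155 CPM in 0N+ABA, with 1 of 7 at 0. From the leaf list, chlorophyll a-b binding proteins summed to 47.5 to 85.3 CPM in 2N+ABA and 78.3 to 88.6 CPM in 0N+ABA. From the root list, nicotianamine synthases lay at a similar level, 66.9 to 78.2 CPM in 2N+ABA and 61.1 to 96.5 CPM in 0N+ABA. The wider leaf list summed to 163 to 298 CPM in 2N+ABA and 205 to 304 CPM in 0N+ABA, and 30 of its 188 genes had no count. The wider root list, which includes the NRT2 genes, summed to 661 to 1364 CPM in 2N+ABA and 189 to 285 CPM in 0N+ABA, with 11 of 76 at 0. The part of other tissues in the results below was not tested.

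Gene IDs of this form are numbered along each chromosome, and 9 of the 12 members carried consecutive IDs. They formed 3 runs, one on each of chromosomes 6A, 6B and 6D, the 3 subgenomes of hexaploid wheat. The 6A run held 3 members (TraesCS6A02G005700, TraesCS6A02G005800 and TraesCS6A02G005900). The 6B run held 2 (TraesCS6B02G011300 and TraesCS6B02G011400), followed directly by TraesCS6B02G011500, a gene named only as a rhodanese domain-containing protein and therefore no member. The 6D run held 4 (TraesCS6D02G008300, TraesCS6D02G008400, TraesCS6D02G008500 and TraesCS6D02G008600). A further pair, TraesCS6A02G129500 and TraesCS6D02G118800, lay elsewhere on the same chromosomes, and TraesCS4D02G349800 was on chromosome 4D.

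The deposited counts show which copies shared reads. TraesCS6A02G005800, TraesCS6B02G011400 and TraesCS6D02G008500 had fractional counts in all 6 libraries, as happens when a read is divided between genes. Their sums were nevertheless whole in all 6, within a tolerance of 0.011 per gene: 1770, 1537.99 and 1857 counts in 2N+ABA, and 524, 559 and 405 counts in 0N+ABA. Reads were thus divided among these 3 copies, one per subgenome, and the split between them is uncertain while their sum is not. TraesCS6D02G008600, TraesCS6A02G129500 and TraesCS6D02G118800 had whole counts in all 6 libraries. The other 4 tested members had fractional counts in at least 1 library and whole counts in at least 3. TraesCS6A02G005700 and TraesCS6D02G008400 summed to 148 counts in 2N+ABA replicate 2 and to 124 in 0N+ABA replicate 2, and TraesCS6A02G005700 and TraesCS6D02G008300 to 236 in 2N+ABA replicate 3. TraesCS6A02G005900 and the non-member TraesCS6B02G011500 summed to 444 in 0N+ABA replicate 2. In that library TraesCS6A02G005700 and TraesCS6A02G005900 also summed to a whole number within the tolerance (370.01), so more than 1 pairing is possible there. In 2N+ABA replicate 3, so did TraesCS6D02G008300 with TraesCS6A02G005800 and TraesCS6B02G011400 (491.97). The same held there for TraesCS6D02G008300 with TraesCS6A02G005700 and TraesCS6D02G008500 (1656.97), so the grouping is not unique in that library either.

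The 3 copies that shared reads rose together with nitrate. TraesCS6D02G008500, the 6D copy, had 76.7, 73.1 and 80.1 CPM in 2N+ABA and 24.5, 26.9 and 19.8 CPM in 0N+ABA. Every 2N+ABA library lay far above every 0N+ABA library, with means of 76.6 ± 3.47 and 23.7 ± 3.64 CPM (SD, n = 3 each) and a log2 fold change of 1.69 (SE 0.132). TraesCS6A02G005800, the 6A copy, had 12.5, 10.4 and 12.3 CPM in 2N+ABA and 2.70, 2.46 and 2.06 CPM in 0N+ABA. It was lower in level than the 6D copy and larger in change, with a log2 fold change of 2.28 (SE 0.155), the largest of the 10 tested members. TraesCS6B02G011400, the 6B copy, had 12, 10.3 and 12.2 CPM in 2N+ABA and 2.87, 2.63 and 2.06 CPM in 0N+ABA. Its values followed those of the 6A copy library by library, and its log2 fold change was 2.19 (SE 0.160). Because the 3 copies shared reads, this likeness and their single fold changes depend on how those reads were divided.

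With the counts of the 3 copies summed before the fit, a choice made after the data were seen, the total was 101, 93.8 and 105 CPM in 2N+ABA and 30.1, 32.0 and 23.9 CPM in 0N+ABA. The summed row differed by 3.49-fold (log2 fold change 1.80, SE 0.133), a value that does not depend on how reads were divided. Within the total, the 6D copy held 75.7% to 78.0% in 2N+ABA and 81.4% to 84.2% in 0N+ABA. The 6A copy held 11.1% to 12.4% in 2N+ABA and 7.61% to 9.04% in 0N+ABA, and the 6B copy 11% to 11.9% in 2N+ABA and 8.24% to 9.53% in 0N+ABA. None of these ranges overlapped between the groups, and how far the division of shared reads moved them was not tested.

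**Figure D1:**
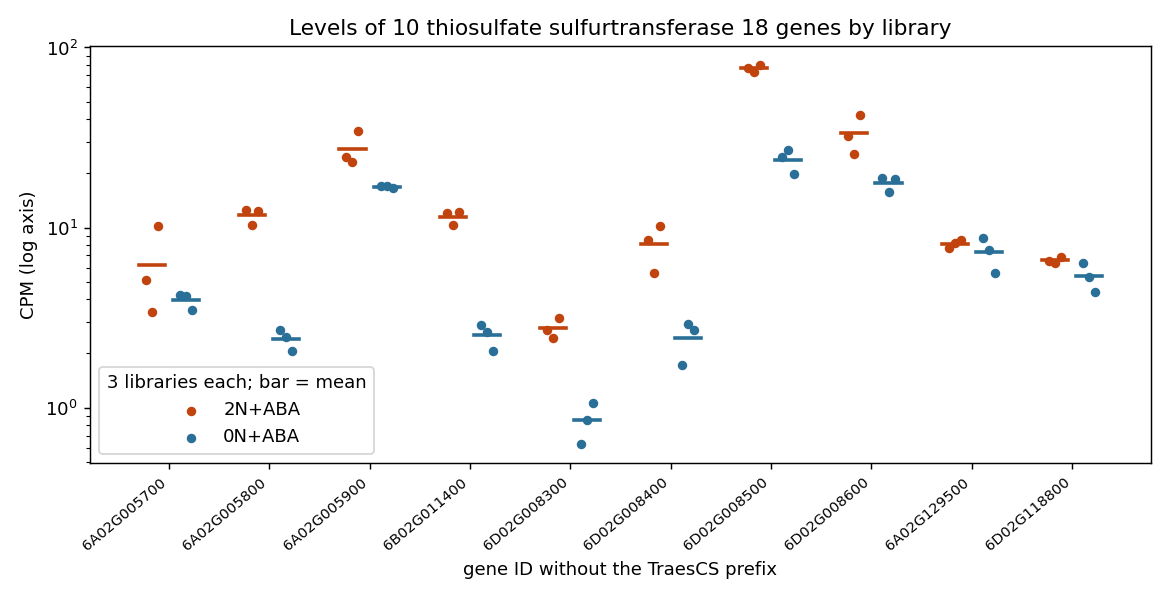
CPM of the 10 tested genes (log axis), with 1 point per library and a bar at the group mean, 2N+ABA left of 0N+ABA for each gene. TraesCS6D02G008500 stands highest in 2N+ABA at 76.6 CPM, and the pair at the right, TraesCS6A02G129500 and TraesCS6D02G118800, overlaps between the groups.

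Both of the first members of the 6D run also rose. TraesCS6D02G008400 had 8.58, 5.61 and 10.3 CPM in 2N+ABA and 1.72, 2.92 and 2.71 CPM in 0N+ABA. The groups did not overlap, but 2N+ABA replicate 2 lay well below the other 2N+ABA libraries, and the log2 fold change was 1.73 (SE 0.271). TraesCS6D02G008300 was the least abundant tested member, with 2.69, 2.44 and 3.16 CPM in 2N+ABA and 0.631, 0.859 and 1.06 CPM in 0N+ABA. Its groups did not overlap either (log2 fold change 1.69, SE 0.25), on 40 to 55.94 counts per library in 2N+ABA and 11 to 18 in 0N+ABA.

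The last members of the 6D and 6A runs had smaller fold changes than the members directly before them. TraesCS6D02G008600, the last of the 6D run, had 32.4, 25.7 and 42.2 CPM in 2N+ABA and 18.9, 15.9 and 18.6 CPM in 0N+ABA. Its rise on the log2 scale was 0.91 (SE 0.179), with the 2N+ABA libraries spread more widely (SD 8.28 CPM) than the 0N+ABA libraries (SD 1.68 CPM). TraesCS6A02G005900, the last of the 6A run, had 24.7, 23.1 and 34.3 CPM in 2N+ABA and 17, 17 and 16.5 CPM in 0N+ABA. The groups did not overlap, and the log2 fold change of 0.70 (SE 0.155) did not pass edgeR's threshold, while it did by DESeq2, whose calls upward made up 2.65% of genes. TraesCS6B02G011500, the rhodanese domain-containing gene that follows the 6B run and is no member, had 10.3, 10.2 and 15.7 CPM in 2N+ABA and 7.0, 8.41 and 9.49 CPM in 0N+ABA. Its log2 fold change of 0.54 (SE 0.198) did not pass by edgeR (adjusted p = 0.223).

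TraesCS6A02G005700, the first of the 6A run, rested on 1 library. It had 5.09, 3.42 and 10.1 CPM in 2N+ABA and 4.25, 4.18 and 3.48 CPM in 0N+ABA. In 2N+ABA, replicate 3 lay far above the 0N+ABA range, replicate 1 slightly above it and replicate 2 slightly below it. The log2 fold change of the gene was 0.65 (SE 0.355) and did not pass. It was 0.10 without 2N+ABA replicate 3.

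The pair outside the runs had levels that overlapped between the groups. TraesCS6A02G129500 had 7.66, 8.17 and 8.51 CPM in 2N+ABA and 8.72, 7.5 and 5.60 CPM in 0N+ABA (log2 fold change 0.16, SE 0.169). TraesCS6D02G118800 had 6.52, 6.34 and 6.88 CPM in 2N+ABA and 6.37, 5.32 and 4.36 CPM in 0N+ABA (log2 fold change 0.30, SE 0.160). Neither passed, which does not show that they were unaffected, and in both the 0N+ABA libraries were the more widely spread. Of the untested members, TraesCS6B02G011300 had 0, 0 and 4 counts in 2N+ABA and 0, 6 and 3 counts in 0N+ABA. TraesCS4D02G349800 had 0 counts in all 6 libraries, which allows up to 0.169 to 0.183 CPM in a library (3 counts, counting error only).

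In all, 6 of the 10 tested members rose and 0 fell by edgeR's quasi-likelihood test at an adjusted p under 0.05 over all 53862 genes tested (0 lower at an unadjusted p under 0.05, and 0 by DESeq2 and limma-voom). Of all tested genes, 1.67% rose and 0.579% fell, 2.25% in either direction. At an unadjusted p under 0.05, 4644 of the 53862 were higher and 4186 lower. By limma-voom 6 members rose as well, beside 1.57% of all genes. The median log2 fold change was 1.30 over the 10 members and -0.02 over all tested genes. Groups did not overlap in 7 members, with 2N+ABA higher in each, as in 11.3% of all tested genes (22.1% without overlap in either direction). Because the family was picked with this contrast in view, nothing is read from these shares. These counts and the median include the 3 copies that shared reads, which are not separate measurements. With their counts summed, the summed row and 3 other members rose by edgeR. The 3 copies that shared reads passed in each of the 6 fits that left out 1 library. The count of 6 was 3 when 0N+ABA replicate 1, 2N+ABA replicate 1 or 2N+ABA replicate 3 was left out. Over all genes 329, 251 and 362 rose in those fits, against 898 with all libraries. The count of members was 4 without 0N+ABA replicate 3 and 6 without 2N+ABA replicate 2, where 349 and 417 of all genes rose. It was 7 if 0N+ABA replicate 2 was dropped, where 5.19% of all genes rose. TraesCS6D02G008300 did not pass in the first 3 of those fits, and TraesCS6D02G008400 and TraesCS6D02G008600 also not without 0N+ABA replicate 3. TraesCS6A02G005900 was the member gained without 0N+ABA replicate 2.

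**Figure D2:**
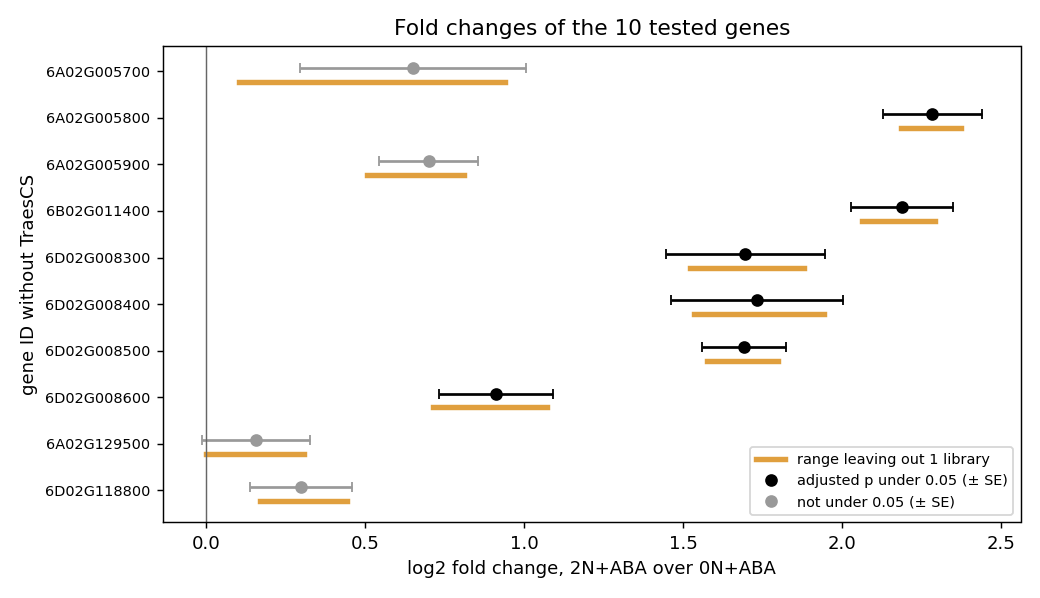
Log2 fold changes (2N+ABA over 0N+ABA) of the 10 tested genes with their standard errors, black where the adjusted p was under 0.05 and grey otherwise, and below each the range over fits that leave out 1 library. The range of TraesCS6A02G005700 runs from 0.10 to 0.94, while those of the 3 copies that shared reads stay at or above 1.58.

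The order of the 2N+ABA libraries was alike for most of the 10 tested members. The highest 2N+ABA value was in replicate 3 for 9 of the 10 and in replicate 1 for the other, and the lowest was in replicate 2 for 9 of the 10. The TMM scaling factors of these libraries were 1.01 for replicate 3 and 0.953 for replicate 2, and their part in the pattern was not tested. How many of all tested genes had the same order was not counted in either group, and 3 of the 10 members share reads. Whether the order is particular to the members is therefore not known. The SD within 2N+ABA was smallest for TraesCS6D02G118800, TraesCS6D02G008500 and TraesCS6A02G129500, at 4.12%, 4.53% and 5.24% of the mean, and largest for TraesCS6A02G005700, at 56.3%. Within 0N+ABA the highest value was in replicate 1 for 7 of the 10. 0N+ABA replicate 2, which stood apart on the principal component, held 86.0 CPM of the 12 genes together, between the 87.7 CPM of replicate 1 and the 76.4 CPM of replicate 3.

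Levels were compared between members in TPM, which allows for transcript length. In 2N+ABA, TraesCS6D02G008500 was highest at 119 ± 9.60 TPM, above TraesCS6D02G008600 at 69.0 ± 19.3 TPM and TraesCS6A02G005900 at 44.1 ± 11.1 TPM (SD, n = 3). The range of TraesCS6D02G008500 lay above that of TraesCS6D02G008600, whereas the ranges of TraesCS6D02G008600 and TraesCS6A02G005900 overlapped. TraesCS6A02G005800 followed at 28.5 ± 3.97 TPM and TraesCS6B02G011400 at 21.8 ± 2.80 TPM. From TraesCS6B02G011400 down through TraesCS6A02G129500, TraesCS6D02G118800, TraesCS6D02G008400 and TraesCS6A02G005700 to TraesCS6D02G008300 at 4.62 ± 0.756 TPM, each range overlapped the next. In 0N+ABA, TraesCS6D02G008500 and TraesCS6D02G008600 overlapped at 38.0 ± 5.59 and 37.9 ± 3.93 TPM. TraesCS6A02G129500 at 17.5 ± 3.76 TPM and TraesCS6D02G118800 at 14.2 ± 2.65 TPM there stood above TraesCS6A02G005800 at 6.03 ± 0.835 TPM. In 2N+ABA the order of these genes was the opposite, with TraesCS6A02G005800 above both. The levels of the single copies that shared reads, TraesCS6A02G005800 among them, depend on how those reads were divided.

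The summed level of the 12 genes was 341, 286 and 398 TPM in 2N+ABA and 167, 159 and 145 TPM in 0N+ABA. The mean was 342 ± 56.3 TPM in 2N+ABA and 157 ± 11.6 TPM in 0N+ABA (SD, n = 3 each), a ratio of 2.18. The 3 copies that shared reads held 49.8% of the summed TPM in 2N+ABA and 31.1% in 0N+ABA. The share of TraesCS6D02G008500 was 35% ± 3.00 in 2N+ABA and 24.2% ± 2.50 in 0N+ABA, without overlap. This share of a single copy depends on how the shared reads were divided. The pair outside the runs held smaller shares with nitrate: TraesCS6A02G129500 5.59% ± 0.664 in 2N+ABA and 11.1% ± 1.60 in 0N+ABA, and TraesCS6D02G118800 4.99% ± 0.438 in 2N+ABA and 9.03% ± 1.04 in 0N+ABA.

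**Figure D3:**
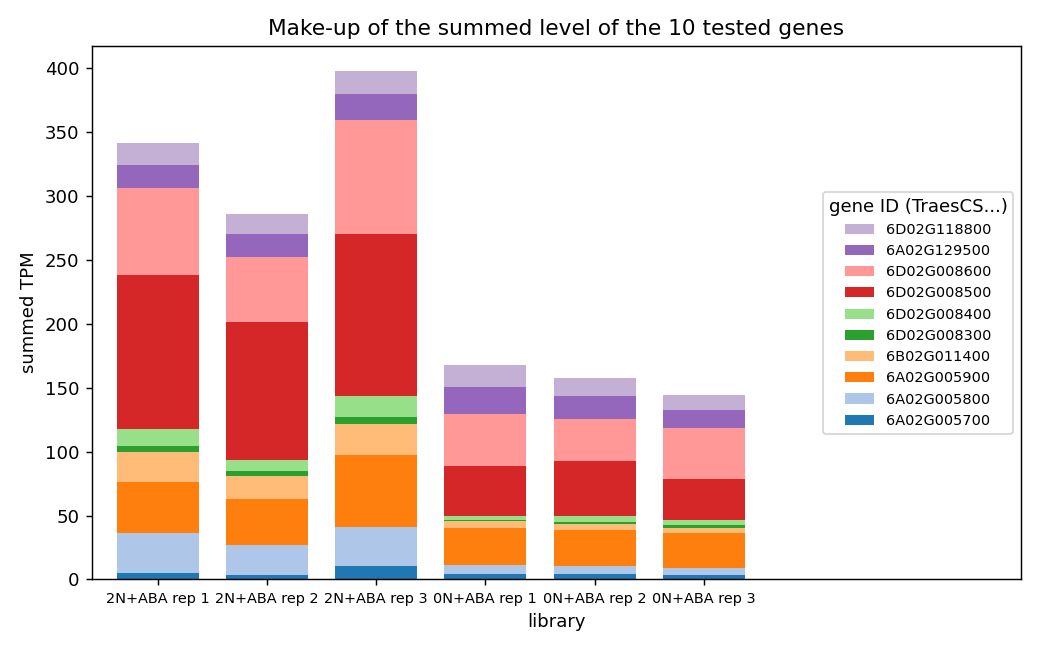
Summed TPM of the 10 tested genes in each library, stacked by gene, with the 2N+ABA libraries left of the 0N+ABA libraries. The bars reach 286 to 398 TPM in 2N+ABA and 144 to 167 TPM in 0N+ABA, and the part of TraesCS6D02G008500 averages 119 TPM in 2N+ABA and 38.0 TPM in 0N+ABA.

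The genes beside the runs were set against the members, with 4 listed IDs taken on each side, a choice made after the data were seen. The names beside the runs recurred across the subgenomes. Each run was preceded by a flavone O-methyltransferase gene and at least 1 flavonoid hydroxylase gene, and followed by at least 1 gene for a RuBisCO large subunit-binding protein. Of 24 such genes beside the 3 runs, 17 were tested and 0 passed by edgeR (smallest adjusted p = 0.168), DESeq2 or limma-voom. Since 2.25% of all tested genes passed in either direction, a count of 0 among 17 says little. At an unadjusted p under 0.05, 3 were higher and 0 lower, all beside the 6B run: TraesCS6B02G011000, TraesCS6B02G011200 and TraesCS6B02G011500. At that cutoff 4644 of the 53862 tested genes were higher and 4186 lower, so these 3 say little about the place. The log2 fold changes of all 17 tested genes beside the runs ran from -0.35 to 0.85. The flavone O-methyltransferase genes directly before the 6A and 6D runs, TraesCS6A02G005600 and TraesCS6D02G008200, had log2 fold changes of -0.02 (SE 0.121) and 0.03 (SE 0.203). The first members of those runs, directly next to them, had 0.65 (SE 0.355) and 1.69 (SE 0.25). The value on 6A did not pass and was 0.10 without 2N+ABA replicate 3.

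**Figure D4:**
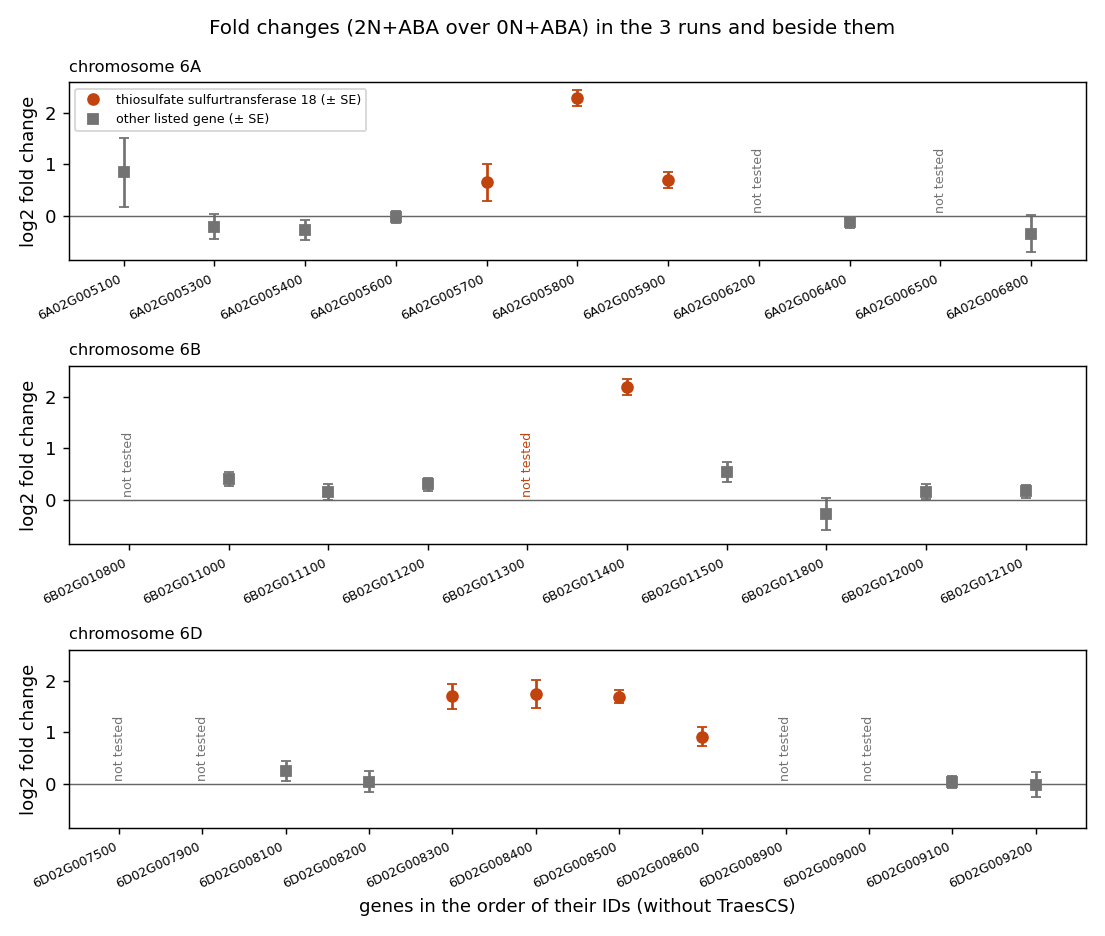
Log2 fold changes (2N+ABA over 0N+ABA, ± SE) of members (circles) and other listed genes (squares) in the order of their IDs, in 1 panel per chromosome. Members reach 2.28 on 6A, 2.19 on 6B and 1.73 on 6D, and the squares stay between -0.35 and 0.85.

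Other rhodanese-type genes were counted beside the share over all tested genes, of which 1.67% were higher and 0.579% lower by edgeR. At an unadjusted p under 0.05, 4644 of the 53862 tested genes were higher and 4186 lower. The 36 tested had a median log2 fold change of -0.01. By edgeR, 1 was higher and 0 were lower (2 lower at an unadjusted p under 0.05, and 0 by DESeq2 and limma-voom), a count too small to tell from that share. The gene was TraesCS7A02G545100, named for the Arabidopsis senescence-associated protein DIN1, at 0.970 ± 0.0617 CPM in 2N+ABA and 0.173 ± 0.151 CPM in 0N+ABA (SD, n = 3 each, edgeR adjusted p = 0.0422). In the 0N+ABA libraries 3 counts amount to 0.172 to 0.177 CPM, so the level of the gene there rested on a few counts. The gene did not pass without 0N+ABA replicate 3 or any 2N+ABA library (edgeR adjusted p = 0.129 in the first of these fits and 0.133 to 0.153 in the others). Dropping 0N+ABA replicate 2 gave 1 rise and 2 falls among these genes, and dropping 0N+ABA replicate 1 gave the same 1 and 0 as all libraries. Over all genes the first of these fits gave 2852 rises and 1755 falls, and the second 329 and 96.

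The 44 tested genes for the formation and removal of cyanide, with alternative oxidase in the same list, had a median log2 fold change of 0.22. By edgeR 3 were higher and 0 lower (2 lower at an unadjusted p under 0.05, and 0 by DESeq2 and limma-voom). All 3 encode 1-aminocyclopropane-1-carboxylate oxidase, which makes ethylene and releases cyanide. TraesCS4D02G095500 had 20.1 ± 1.46 CPM in 2N+ABA and 7.61 ± 1.33 CPM in 0N+ABA (edgeR adjusted p = 0.00277). TraesCS4A02G221300 had 28.8 ± 4.27 CPM in 2N+ABA and 12.9 ± 1.69 CPM in 0N+ABA (edgeR adjusted p = 0.00718). The other was TraesCSU02G067700 (log2 fold change 1.09, edgeR adjusted p = 0.0410), which kept its call only without 0N+ABA replicate 2 among the fits that left out 1 library (adjusted p between 0.0792 and 0.147 in the other 5). Over all tested genes 1.67% rose. At an unadjusted p under 0.05, 4644 of the 53862 tested genes were higher and 4186 lower. Dropping 0N+ABA replicate 2 gave 6 rises, in a fit where 5.19% of all genes rose, and dropping any other library gave 2. In those other fits 251 to 417 of all genes rose, against 898 with all libraries.

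Sulfate uptake, its reduction and cysteine synthesis were covered by 72 tested genes with a median log2 fold change of 0.10. By edgeR 6 were higher and 1 lower (12 higher and 6 lower at an unadjusted p under 0.05). Over all tested genes 1.67% were higher and 0.579% lower. At an unadjusted p under 0.05, 4644 of the 53862 tested genes were higher and 4186 lower. Cysteine synthase, which joins sulfide to a carbon skeleton, accounted for 4 of the rises, and probable sulfate transporters for the other 2. TraesCS7D02G096800 had 6.70 ± 0.672 CPM in 2N+ABA and 2.60 ± 0.0691 CPM in 0N+ABA (edgeR adjusted p = 0.00344). TraesCS7A02G102800 had 10.8 ± 0.374 CPM in 2N+ABA and 5.94 ± 0.208 CPM in 0N+ABA (edgeR adjusted p = 0.00819, and 0.0518 without 2N+ABA replicate 1). TraesCS3D02G087300 had 66.2 ± 2.34 CPM in 2N+ABA and 42.7 ± 1.11 CPM in 0N+ABA (edgeR adjusted p = 0.0154). It passed without 0N+ABA replicate 2 and missed the threshold in the other fits that left out 1 library (adjusted p between 0.0556 and 0.102). The gene that fell, TraesCS4A02G042700, encodes a serine acetyltransferase, which makes the carbon skeleton for cysteine, and was named after its value was seen. It had 5.59 ± 1.08 CPM in 2N+ABA and 11.8 ± 2.56 CPM in 0N+ABA (edgeR adjusted p = 0.0332, and 0.106 to 0.155 when 0N+ABA replicate 1, 2N+ABA replicate 1 or 2N+ABA replicate 3 was left out). The number that rose was 8 without 0N+ABA replicate 2, in a fit where 5.19% of all genes rose. It was 1 if 2N+ABA replicate 1 was dropped, and 2 if any of the other 4 libraries was. In these latter fits 251 to 417 of all genes rose and 32 to 122 fell, against 898 and 312 with all libraries. The number that fell was 2 without 0N+ABA replicate 2 or 2N+ABA replicate 2, 1 if 0N+ABA replicate 3 was dropped, and 0 if any of the other 3 libraries was.

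Glutathione and thiol redox genes gave 1 rise and 0 falls among 182 tested by edgeR (10 lower at an unadjusted p under 0.05, 1 fall by DESeq2 and 0 by limma-voom). The gene was TraesCS2B02G390900, for a chain of ferredoxin-thioredoxin reductase, with a log2 fold change of 0.78 (SE 0.149, edgeR adjusted p = 0.0375). Over all tested genes 1.67% rose and 0.579% fell. At an unadjusted p under 0.05, 4644 of the 53862 tested genes were higher and 4186 lower. Without 0N+ABA replicate 2, 6 of these redox genes rose and 2 fell, in a fit where 5.19% of all genes rose. Without any other library 0 rose or fell by edgeR, in fits where 251 to 417 of all genes rose, against 898 with all libraries. Of 18 genes for the handling of sulfide, persulfide and sulfite and of 21 genes for the molybdenum cofactor, which nitrate reductase needs, 0 passed by edgeR, DESeq2 or limma-voom. At an unadjusted p under 0.05, 3 of the sulfide genes were higher and 0 lower, and 2 of the cofactor genes were higher and 2 lower.

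Among 39793 other genes with a described protein and a mean of at least 1 CPM, the 5 nearest in pattern to TraesCS6D02G008500 were ranked over the 6 libraries. Nearness was the root mean square difference of log2(CPM + 1) after each gene's mean was subtracted, and its median over these genes was 0.859. The nearest was TraesCS3D02G098600, a lecithin-cholesterol acyltransferase-like gene (difference 0.0635), with 32.5 ± 2.08 CPM in 2N+ABA and 10.2 ± 1.62 CPM in 0N+ABA. It was followed by TraesCS1D02G214300, named NRT1/PTR family 6.3 (0.0751), TraesCS2B02G376600, a nodulin-like gene (0.0893), TraesCS6B02G130800, named NLP3 (0.103), and the member TraesCS6B02G011400 (0.117). That member shares reads with TraesCS6D02G008500. For TraesCS6A02G005800 the nearest gene was the same TraesCS6B02G011400 (0.0446), with which it shares reads. Next came TraesCS7A02G466800, named vegetative cell wall protein gp1 (0.0739), TraesCS5A02G329500, an L-gulonolactone oxidase gene (0.101), TraesCS6B02G130800 (0.127) and TraesCS2B02G376600 (0.140). All these genes are measured in the same 6 libraries, so the ranking is a description of those libraries.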

How the data were processed

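The tools listed per the submitters' processing notes are HISAT and Bowtie2, with neither version nor role. Counter, build and annotation: not given in the sources used here. Per the labels' protocols, libraries were poly(A)-selected, random-primed and PCR-amplified, with no strand or molecular identifier recorded. The authors deposited 1 table of estimated counts, not normalized, with TPM and FPKM values per gene and library, per the file headers; 2 columns of group means outside these samples were not used. Chromosomes come from the gene IDs, 0 of which matched the RefSeq gene table, and coordinates were not used.

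Estimated counts were rounded to whole numbers. The test was that of edgeR 4.0.16, run under R 4.3.3 (filterByExpr, TMM scaling, quasi-likelihood test), with Benjamini-Hochberg adjustment over the 53862 genes kept and a threshold of 0.05. The kept genes held 99.6% of the counts. Standard errors come from the quasi-likelihood F statistic. CPM values are TMM-scaled, and SDs are over 3 libraries. The deposited TPM values were used only to compare members, and the FPKM values only as an alternative. The members and lists were chosen with earlier results of these data known. Named were all members, up to 3 called genes per list with the smallest p, and the 5 nearest genes to the members with the highest TPM and the largest called change. Replicates of a group differed by more than sampling noise (chi-square per degree of freedom 3.92 to 16.7). Alternatives were RLE scaling, other filters, DESeq2 1.42.0, limma-voom 3.58.1, a replicate block and leaving out each library.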

Additional observations from a re-analysis of the deposited data

How the results depend on the processing

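The fold changes of the 10 tested members kept their sign under every alternative run, and the summed CPM of the family was 2.15 to 2.46 times higher in 2N+ABA than in 0N+ABA when 1 library was left out, against 2.31 with all. Called members numbered 6 with RLE scaling, the stricter filter (10 counts in 3 libraries) and limma-voom, 7 without a filter and by DESeq2, and 3 to 7 when 1 library was left out. With any rhodanese-type name counted, 7 genes were called. Over all genes, 898 were higher and 312 lower. These counts were 1479 and 714 by DESeq2, and 251 to 2852 and 32 to 1755 when 1 library was left out, the largest without 0N+ABA replicate 2. Leaving out 1 library gave 2 to 6 called genes for cyanide handling, 0 to 8 for glutathione and thiol redox, 0 to 3 for other rhodanese-type genes and 1 to 10 for sulfate assimilation and cysteine synthesis, and DESeq2 called 4 glutathione and thiol redox genes. The cause of these shifts was not tested.

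Samples share replicate numbers across groups, and the labels do not say that the numbers mark pairs. Deviations from the group means correlated at 0.10, -0.25 and -0.24 for numbers 1, 2 and 3, and no library correlated best with its own number. With 3 libraries in a group the deviations depend on each other, so these values cannot settle whether the numbers mark pairs. With a replicate block, 588 genes were higher and 135 lower, 5 members were called, 0 glutathione and thiol redox genes and 0 other rhodanese-type genes. A gene at the depth of TraesCS6B02G011300, with at most 6 counts in a library, could not be compared. Shares of the family in summed counts moved by more than 1 SD from those in TPM for 8 of the 10 members, since counts take no account of length.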

Other observations

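One further gene, TraesCS7B02G055200, lists thiosulfate sulfurtransferase 18 only as a later match, and its first name is HIGH ARSENIC CONTENT 1, an Arabidopsis arsenate reductase with a rhodanese domain. It had 18, 13.2 and 27.6 CPM in 2N+ABA and 26.1, 44.5 and 24.5 CPM in 0N+ABA (replicates 1, 2 and 3 of each). The groups overlapped, and the log2 fold change of -0.69 (SE 0.301) did not pass by edgeR (adjusted p = 0.302).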
